A study of Mus musculus with 56 samples.

Results

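Adrenal glands of female control mice were compared at 6, 9 and 12 weeks of age by RNA sequencing of the whole gland. The members are the 12 female libraries labelled control, 4 at each age, out of 56 libraries in 14 groups in the series, and they were chosen by label alone. All 12 animals were C57BL/6J females negative for SF1-Cre, a Cre recombinase driven by the promoter of steroidogenic factor 1 (Nr5a1), the transcription factor of steroid-producing cells. They were the littermate controls of SF1-Cre+; Znrf3 Fx/Fx mice, abbreviated cKO here, in which Znrf3, an E3 ligase of the plasma membrane by which Frizzled receptors are cleared and Wnt signalling is held down, is deleted in Nr5a1-expressing cells. Whether the control animals themselves carried floxed Znrf3 alleles is not given in the labels. Each library came from a separate mouse, whose gland was cleaned of fat and snap frozen, and poly(A) RNA was sequenced with a strand-keeping kit. The series set these glands beside cKO glands of the same ages, and the age comparison among controls shows how glands without the Cre differed over the same weeks.

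The adrenal gland is built of an outer cortex that makes steroids and an inner medulla that makes adrenaline and noradrenaline. In the cortex the zona glomerulosa makes aldosterone and the zona fasciculata makes glucocorticoid, and both are renewed from progenitors in and under the capsule. Young mice also have an X-zone, a remnant of the fetal cortex next to the medulla, which regresses after puberty in males and lasts longer in females that have not been pregnant.

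The libraries held 35694264 to 44837650 counted reads, and 18014 of the 55487 listed genes passed the filter on low counts. Values below are counts-per-million values (CPM) after TMM scaling, which removes differences in library size and composition. Every library carried the defining transcripts of the gland: Nr5a1 lay between 741 and 1375 CPM, Star between 7123 and 16179, Cyp11a1 between 4830 and 6253, Th between 207 and 323 and Chga between 1448 and 2017. The kidney and ovary markers Umod, Kap, Slc34a1 and Fshr had 0 counts in all 12 libraries, and the liver gene Alb reached at most 3.17 CPM. Not every gene listed for neighbouring organs was low. The 12 listed summed to 50.4 to 75.4 CPM at 6 weeks and 55.3 to 85.9 CPM at 12 weeks. Most of this was the pancreatic elastase Cela1, with 49.4 to 84.3 CPM in controls in a joint scaling of 24 libraries. The source of its transcripts was not tested. Znrf3 itself lay between 31.7 and 40.9 CPM in the controls of all ages (12-over-6 log2 difference -0.09 ± 0.08, SE; 95% interval -0.27 to 0.08). In a joint scaling of 24 libraries it had 55.6 to 101 CPM in cKO glands and 31.2 to 40.4 CPM in controls; a count over the whole gene does not check the deletion of single exons. Several libraries stood apart in groups of genes and are named again beside the results they touch: replicate 1 at 12 weeks in immediate early genes, replicate 4 at 12 weeks in adipose and smooth muscle genes, and replicate 4 at 6 weeks in the X-zone gene Akr1c18 and the medullary gene Th. The library numbers run in the order of the ages, so anything tied to library number cannot be told apart from age.

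Between 6 and 12 weeks 3 genes passed the threshold, among them Trem2 and Hsf4, which both rose. The 3 were 0.0167% of the genes tested (edgeR quasi-likelihood test, Benjamini-Hochberg adjusted p under 0.05). Without adjustment, 1996 genes (11.1%) had p under 0.05, of which 1189 (6.6%) were higher and 807 (4.48%) lower at 12 weeks, and the median log2 difference of all genes was 0.001. In the same fit 0 genes passed at 9 against 6 weeks, 0 at 12 against 9 weeks and 0 in the test of any age difference, while 1300 (7.22%), 1577 (8.75%) and 1860 (10.3%) had unadjusted p under 0.05. DESeq2 called 256 genes (1.42%) at 12 against 6 weeks, 189 higher (1.05%) and 67 lower (0.372%), 63 (0.35%) at 9 against 6 weeks, 59 (0.328%) at 12 against 9 weeks and 309 for any age difference, so the number of calls depends on the tool. The 3 calls at 12 against 6 weeks also depended on single animals. With 1 library left out the count was 0 without replicate 1, 2 or 3 at 6 weeks, replicate 1 at 9 weeks or replicate 2, 3 or 4 at 12 weeks, 1 without replicate 4 at 6 weeks, 2 without replicate 4, 3 without replicate 3 and 4 without replicate 2 at 9 weeks, and 6 without replicate 1 at 12 weeks.

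Trem2, a lipid-sensing receptor of macrophages, had 3.35, 3.68, 3.60 and 3.46 CPM in the 6-week glands, 5.68, 6.55, 5.29 and 4.86 CPM at 9 weeks and 6.32, 8.77, 6.90 and 8.66 CPM at 12 weeks. The 6-week values lay below all others, and the 9- and 12-week ranges overlapped. It rose 2.18-fold at 12 against 6 weeks (log2 difference 1.12 ± 0.13, SE, n = 4 per age; edgeR adjusted p = 0.0233). Hsf4, a heat shock transcription factor best known from the lens, had 0.585, 0.588, 0.649 and 0.683 CPM at 6 weeks, 1.06, 0.939, 1.597 and 1.15 CPM at 9 weeks and 1.79, 1.54, 1.75 and 2.21 CPM at 12 weeks. Here too every 6-week gland was below every older one, and the rise at 12 against 6 weeks was 2.9-fold (log2 difference 1.54 ± 0.20; edgeR adjusted p = 0.0247). Over the alternatives tried, the adjusted p ranged between 6.36e-11 and 0.301 for Trem2 and between 9.36e-07 and 0.176 for Hsf4, with the direction unchanged in both. The log2 difference lay between 1.05 and 1.197 for Trem2 and between 1.38 and 1.61 for Hsf4. On a scale corrected for gene length (TPM), Trem2 averaged 5.07 ± 1.09 TPM at 12 weeks and 2.35 ± 0.0874 at 6 weeks, and Hsf4 3.38 ± 0.625 at 12 weeks and 1.18 ± 0.129 at 6 weeks (SD, n = 4 each).

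**Figure D1:**
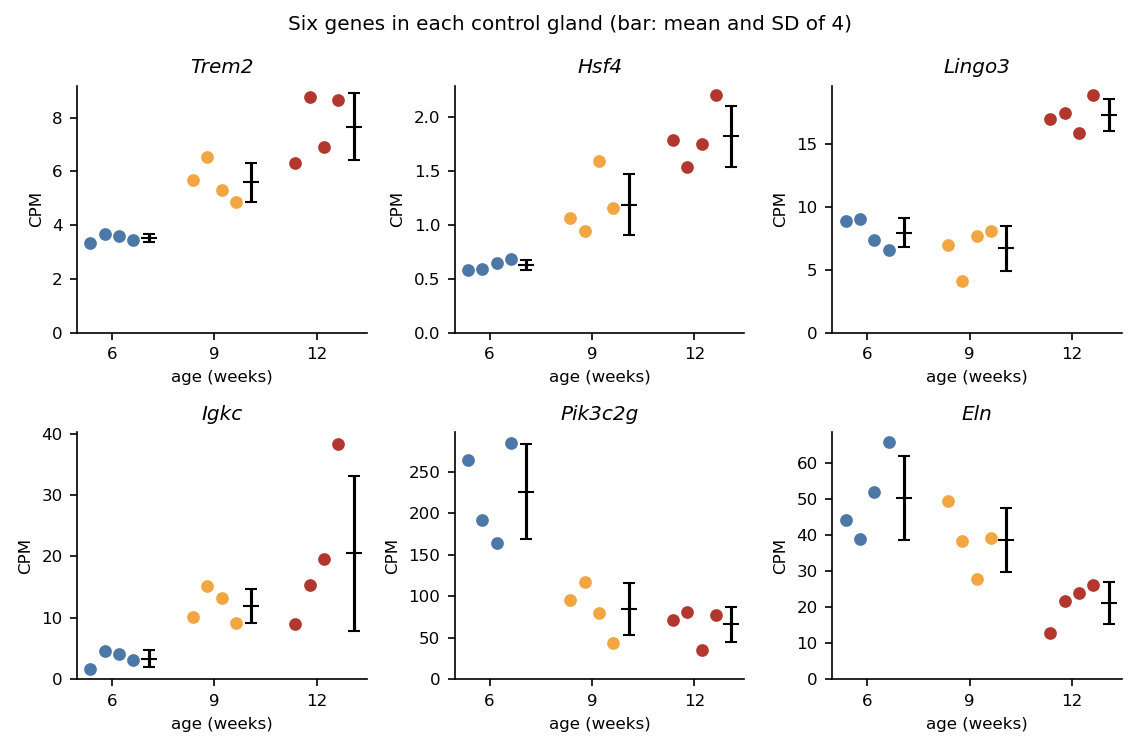
CPM of 6 genes in each of the 12 control glands by age, with points for single animals and the mean and SD over 4 animals beside them. The 12-week values of Trem2 (6.32 to 8.77) and Hsf4 (1.54 to 2.21) lie above the values of all 4 glands at 6 weeks.

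Lingo3, chosen after its values were seen, was higher at 12 weeks than at both younger ages. It codes for a membrane protein with leucine-rich repeats and had 8.87, 9.02, 7.38 and 6.62 CPM at 6 weeks, 6.96, 4.14, 7.68 and 8.13 CPM at 9 weeks and 17.1, 17.5, 15.9 and 18.9 CPM at 12 weeks. The first 2 ages overlapped and the 12-week glands were all above both. Its 12-over-6 log2 difference of 1.12 ± 0.18 did not pass (edgeR adjusted p = 0.0545), nor did that at 12 against 9 weeks, 1.37 ± 0.18 (edgeR adjusted p = 0.0758); with robust estimation of the spread, which called 9 genes (0.05%) and 1 gene (0.00555%) at these intervals, both did. DESeq2 also called it at both intervals (adjusted p = 7.7e-07 at 12 against 6 weeks and 1.88e-10 at 12 against 9 weeks). Over the alternatives the adjusted p at 12 against 6 weeks lay between 7.7e-07 and 0.25.

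Immune transcripts were higher at 12 weeks in several lists, most of them without passing the adjusted test. In bulk tissue, more cells of a type and more RNA per cell cannot be told apart, nor can fewer cells and less RNA per cell. Of 16 macrophage genes, 9 were higher and 1 was lower at unadjusted p under 0.05 (6.6% higher and 4.48% lower among all genes), with a median log2 difference of 0.45. Trem2 was the 1 that passed after adjustment, and DESeq2 called 4 higher, against 1.05% of all genes. Summed over the list, the macrophage genes had 292 to 524 CPM at 6 weeks, 320 to 397 CPM at 9 weeks and 400 to 608 CPM at 12 weeks, so the sums overlapped. Fcer1g, the signalling chain of Fc receptors, chosen after its values were seen, had 15.2, 16.1, 14.2 and 17.8 CPM at 12 weeks, against 9.56, 13.5, 11.4 and 8.69 CPM at 6 weeks. Gpnmb, a glycoprotein of lipid-laden macrophages chosen in the same way, had 1.79, 15.4, 4.21 and 13.3 CPM at 12 weeks, against 0.338, 1.37, 0.168 and 0.706 CPM at 6 weeks (log2 difference 3.75 ± 0.75; edgeR adjusted p = 0.12). Lilr4b, an inhibitory receptor of myeloid cells, also chosen so, had 13.5, 24.6, 17.8 and 28.5 CPM at 12 weeks, against 6.55, 9.26, 6.56 and 9.31 CPM at 6 weeks (log2 difference 1.41 ± 0.21; edgeR adjusted p = 0.0545). In all of these the ages did not overlap, as held for 554 genes (3.08%) that were higher at 12 weeks. Cd163, the haemoglobin scavenger receptor of resident macrophages, went the other way, with 1.29, 0.97, 1.95 and 1.99 CPM at 12 weeks and 1.67, 3.48, 1.97 and 4.51 CPM at 6 weeks, which overlap. The count of macrophage genes higher was 5 without replicate 1 or 4 at 6 weeks or replicate 2 at 12 weeks, 6 without replicate 3 at 6 weeks or replicate 1 at 12 weeks, and 4 without replicate 4 at 12 weeks.

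Antigen presentation genes of MHC class II and dendritic cells had 9 of 12 members higher and 0 lower (median log2 difference 0.66). By the same measure 6.6% of all genes were higher and 4.48% lower. After adjustment 0 of the 12 passed in edgeR and 1 in DESeq2, which called 1.05% of all genes higher. Itgax, the integrin CD11c of dendritic cells, had 9.67, 14.9, 9.88 and 19.7 CPM at 12 weeks, against 5.42, 9.49, 7.95 and 6.30 CPM at 6 weeks (log2 difference 0.89 ± 0.25; edgeR adjusted p = 0.222). H2-Aa, a class II chain, had 92.1, 104, 71.8 and 147 CPM at 12 weeks, against 39.3, 95.9, 64.9 and 60.2 CPM at 6 weeks. Its partner Cd74, the invariant chain, had 269, 317, 207 and 425 CPM at 12 weeks, against 112, 280, 195 and 178 CPM at 6 weeks. For both class II genes, chosen after their values were seen, the ages overlapped and replicate 1 at 6 weeks was the lowest gland and replicate 4 at 12 weeks the highest. The count of 9 fell to 2 without either of these animals or without replicate 4 at 6 weeks, to 4 without replicate 2 at 12 weeks and to 6 without replicate 3 at 6 weeks. Irf8, a transcription factor of dendritic cells and monocytes also chosen afterwards, had 72.9, 81.8, 61.6 and 60.8 CPM at 12 weeks, against 33.8, 46.8, 49.4 and 47.7 CPM at 6 weeks, without overlap (log2 difference 0.64; edgeR adjusted p = 0.156).

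Among 11 tested B and plasma cell genes 4 were higher and 0 lower, and the median was -0.05 (6.6% of all genes higher, 4.48% lower). The 4 were Igkc, Igha, Ighg2c and Jchain, transcripts of antibody chains and of the chain that joins them, while the B cell genes Cd79a, Cd79b, Ms4a1 and Pax5 each had a log2 difference below 0 and did not pass. Igkc, the kappa light chain, had 1.598, 4.63, 4.06 and 3.05 CPM at 6 weeks, 10.1, 15.1, 13.2 and 9.21 CPM at 9 weeks and 9.00, 15.3, 19.5 and 38.4 CPM at 12 weeks. Igha, the heavy chain of IgA, had 0.248, 9.19, 4.93 and 1.87 CPM at 6 weeks, 18.4, 25.4, 27.8 and 20.7 CPM at 9 weeks and 18.4, 33.5, 41.6 and 87.9 CPM at 12 weeks. Jchain, which joins IgA into dimers, had 0.360, 1.05, 1.03 and 0.501 CPM at 6 weeks, 3.03, 5.52, 4.71 and 3.59 CPM at 9 weeks and 2.57, 4.33, 7.91 and 14.5 CPM at 12 weeks. In each of these 3 genes every 6-week gland was below every older one, the 9- and 12-week glands overlapped, and replicate 4 at 12 weeks was the highest. All 12-week glands lay above all 6-week glands in 3.08% of all genes. The 12-over-6 log2 difference was 2.63 ± 0.42 for Igkc (edgeR adjusted p = 0.0545), 3.32 ± 0.52 for Jchain (edgeR adjusted p = 0.0545) and 3.49 ± 0.70 for Igha (edgeR adjusted p = 0.12). Igkc and Igha were chosen after their values were seen. Over the alternatives the adjusted p lay between 1.27e-05 and 0.221 for Igkc and between 3.07e-06 and 0.214 for Jchain.

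Of 12 T and NK cell genes 3 were higher and 0 lower (median log2 difference 0.59; 5 higher without replicate 3 at 12 weeks). Among all genes 6.6% were higher and 4.48% lower. Il7r, the interleukin-7 receptor, had 1.12, 1.301, 1.18 and 2.45 CPM at 12 weeks, against 0.585, 0.539, 0.457 and 0.501 CPM at 6 weeks (log2 difference 1.54 ± 0.28; edgeR adjusted p = 0.106). Nkg7, a granule protein of cytotoxic cells chosen after its values were seen, had 1.03, 1.21, 0.641 and 1.32 CPM at 12 weeks, against 0.473, 0.392, 0.409 and 0.569 CPM at 6 weeks. Both genes were low in every library but did not overlap between the ages. Of 10 neutrophil genes 4 passed the filter and 3 of these were higher; Csf3r, the G-CSF receptor, had 2.49, 3.52, 2.88 and 3.95 CPM at 12 weeks, against 1.598, 2.57, 1.68 and 1.96 CPM at 6 weeks. Of 16 class I and interferon genes 1 was higher, Oas2, with 9.76, 8.70, 7.59 and 8.57 CPM at 12 weeks, against 3.92, 7.72, 7.04 and 3.35 CPM at 6 weeks, which overlap. The count was 6 without replicate 2 at 6 weeks, 3 without replicate 3 at 6 weeks, 2 without replicate 3 at 9 weeks or replicate 3 at 12 weeks, and 0 without replicate 1 or 4 at 6 weeks or replicate 1 at 12 weeks. The list's median was 0.17 at 12 against 6 weeks and 0.37 at 12 against 9 weeks, where 8 of 16 were higher and 0 lower (4.97% of all genes higher) and 0 passed after adjustment in edgeR. Of 7 tested mast cell genes 0 were higher and 1 was lower, the receptor gene Kit, with 6.37, 3.86, 5.81 and 6.9998 CPM at 12 weeks and 8.12, 6.74, 8.34 and 12.3 CPM at 6 weeks.

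**Figure D2:**
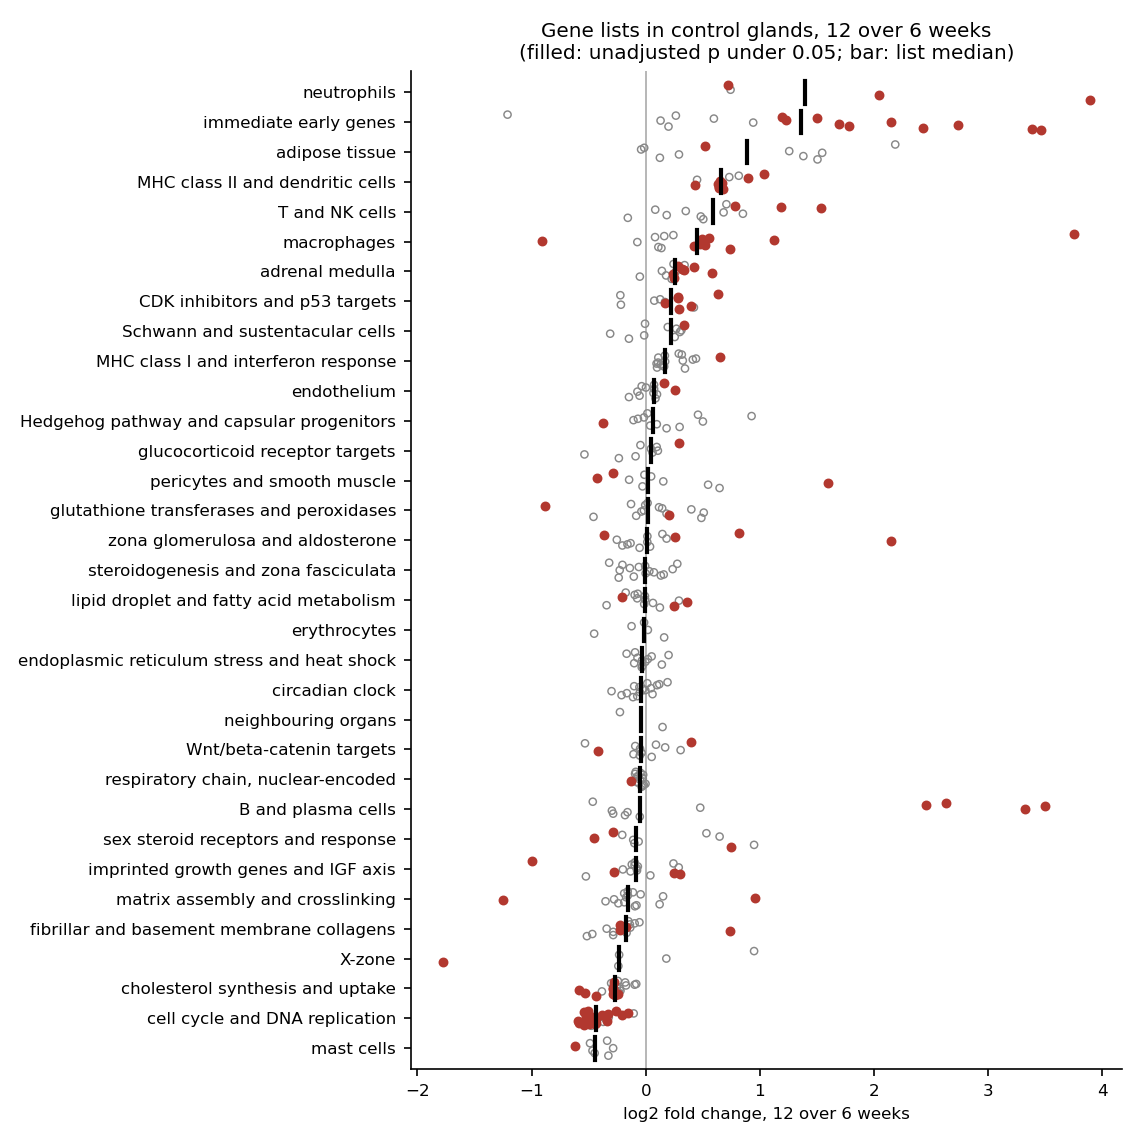
Log2 difference at 12 over 6 weeks (x axis) of each tested gene in the lists examined (rows), with filled points for unadjusted p under 0.05 and a bar at each list's median. The medians were 0.66 for MHC class II and dendritic cells, 1.36 for immediate early genes and -0.44 for the cell cycle.

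Cell cycle and DNA replication genes were lower in the older glands, and most of the step lay between 6 and 9 weeks. At 12 against 6 weeks 18 of 24 were lower at unadjusted p under 0.05 and 0 higher, against 4.48% of all genes lower, and the median log2 difference was -0.44. At 9 against 6 weeks 20 of 24 were lower (3.62% of all genes) with a median of -0.45. At 12 against 9 weeks 0 of 24 had p under 0.05 (4.97% of all genes higher, 3.78% lower), with a median of 0.01. In 17 of the 24 genes all 9-week glands lay below all 6-week glands (2.62% of all genes), and in 14 all 12-week glands did (2.76% of all genes). The 24 genes summed to 509 to 570 CPM at 6 weeks, 372 to 464 CPM at 9 weeks and 353 to 480 CPM at 12 weeks, so no older gland reached the lowest 6-week gland. None passed after adjustment in edgeR, and DESeq2 called 4 lower at 12 and 2 lower at 9 against 6 weeks (0.372% and 0.189% of all genes lower). With any 1 library left out, between 15 and 22 of the 24 were lower at 12 against 6 weeks.

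Mcm3, a subunit of the replicative helicase, had 46.6, 40.5, 46.0 and 46.7 CPM at 6 weeks, 37.3, 32.9, 31.9 and 38.4 CPM at 9 weeks and 31.8, 35.9, 33.95 and 36.2 CPM at 12 weeks. Every older gland was below every 6-week gland (12-over-6 log2 difference -0.38 ± 0.07; edgeR adjusted p = 0.118). Mki67, the proliferation antigen, had 54.4, 43.2, 44.4 and 40.4 CPM at 6 weeks, 36.9, 24.4, 42.6 and 35.4 CPM at 9 weeks and 18.8, 34.8, 32.5 and 44.98 CPM at 12 weeks. Its ages overlapped, replicate 1 being the lowest 12-week gland and replicate 4 the highest (log2 difference -0.48 ± 0.22; edgeR adjusted p = 0.46). Cdk1, the kinase that drives mitosis, had 14.5, 11.2, 12.7 and 10.99 CPM at 6 weeks, 9.58, 7.21, 8.04 and 9.97 CPM at 9 weeks and 5.84, 7.59, 9.44 and 9.94 CPM at 12 weeks. Top2a, the topoisomerase of dividing cells, had 40.2, 35.6, 41.7 and 32.6 CPM at 6 weeks, 27.6, 20.1, 27.3 and 28.1 CPM at 9 weeks and 17.7, 27.03, 25.4 and 32.8 CPM at 12 weeks. Ccnb2, a mitotic cyclin, had 9.02, 7.16, 9.88 and 8.06 CPM at 6 weeks, 6.72, 5.44, 5.85 and 6.31 CPM at 9 weeks and 4.75, 6.36, 6.80 and 7.07 CPM at 12 weeks. Of these 3, chosen after their values were seen, Cdk1 and Ccnb2 did not overlap between 12 and 6 weeks and Top2a did. A list of CDK inhibitors and p53 targets, not all of which inhibit the cycle, was described beside them. Of its 12 genes 6 were higher and 0 lower at 12 against 6 weeks (median 0.22), against 6.6% of all genes higher and 4.48% lower. At 9 against 6 weeks 0 were higher and 2 lower, against 3.6% and 3.62% of all genes. Mdm2, the p53 ubiquitin ligase, had 85.7, 85.3, 82.7 and 83.2 CPM at 12 weeks, against 77.6, 76.9, 74.7 and 70.8 CPM at 6 weeks (log2 difference 0.17 ± 0.05; edgeR adjusted p = 0.258). Cdkn1a, the inhibitor p21, had 32.6, 36.8, 36.7 and 40.8 CPM at 12 weeks, against 32.1, 30.8, 30.9 and 26.1 CPM at 6 weeks. Without replicates 1 and 4 at 12 weeks together, 2 of the 12 CDK inhibitor and p53 target genes were higher.

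**Figure D3:**
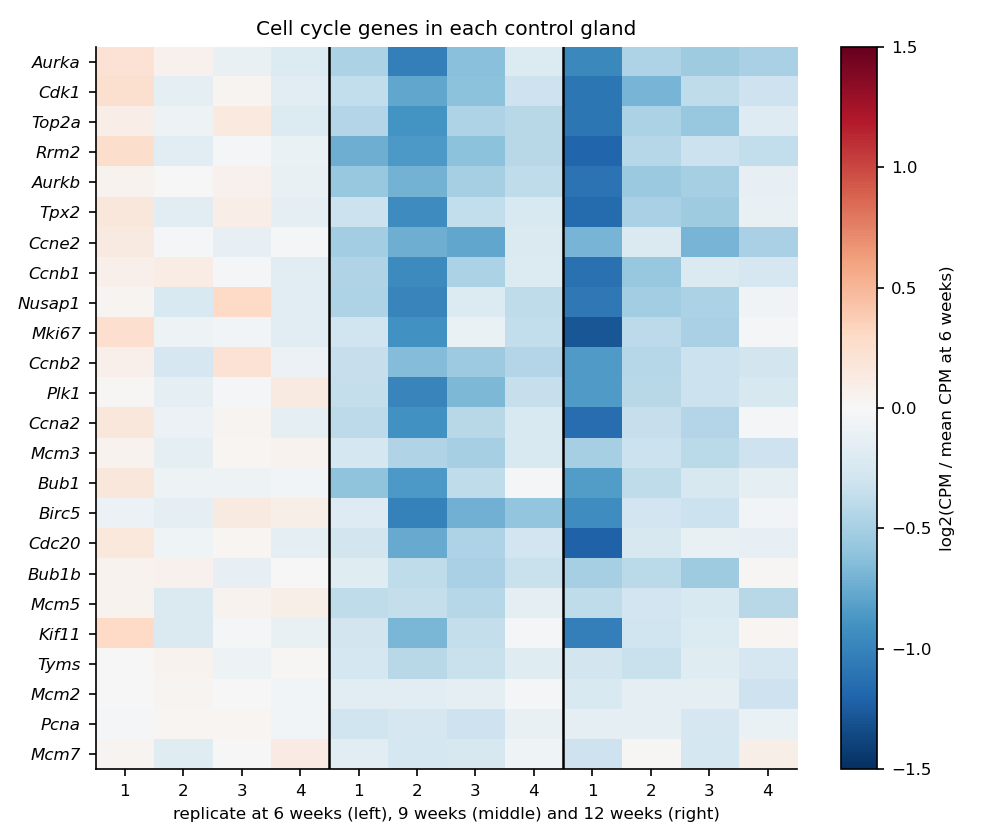
Heat map of 24 cell cycle and DNA replication genes (rows) in the 12 control glands (columns, by age), coloured by the log2 ratio of each gland's CPM to that gene's mean CPM at 6 weeks. The 9- and 12-week columns are mostly below 0, with 20 and 18 of the 24 genes lower than at 6 weeks at unadjusted p under 0.05.

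The windows around the starts of these genes were searched for 2 short motifs. They were CCAAT, the box bound by NF-Y, and TTTGAA, the core of the cell cycle homology region bound by the DREAM and MuvB complexes. Whether either motif bears on the lower levels was not tested. In RefSeq GRCm38.p6 a 300-base window around the start was found for 20 of the 24 genes, in 21 windows. On either strand CCAAT was in 18 of these 21 windows (85.7%), against 37.4% of 32851 windows of all genes, TTTGAA in 10 of 21 (47.6%, against 17.9%) and both in 10 of 21 (47.6%, against 6.95%). CCAAT was about as frequent in windows of the cholesterol synthesis list (82.4%), so it is not particular to the cell cycle genes. The windows shown next are among those that hold both motifs. The windows of Cdk1 (chr10:69352863-69353162, minus strand), Ccnb2 (chr9:70421505-70421804, minus strand) and Top2a (chr11:99024140-99024439, minus strand) follow, 5′ to 3′ on the gene's strand. Capitals mark CCAAT and TTTGAA or their reverse complements ATTGG and TTCAAA, 3 and 2 of them in Cdk1, 3 and 2 in Ccnb2 and 6 and 2 in Top2a. A match is a description of the letters and not a binding site.
Cdk1: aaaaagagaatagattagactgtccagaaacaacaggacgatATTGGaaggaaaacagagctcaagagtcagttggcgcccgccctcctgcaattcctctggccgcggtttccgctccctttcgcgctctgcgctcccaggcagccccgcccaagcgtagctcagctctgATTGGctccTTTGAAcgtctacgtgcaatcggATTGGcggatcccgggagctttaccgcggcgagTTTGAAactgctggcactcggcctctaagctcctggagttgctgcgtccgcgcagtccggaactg
Ccnb2: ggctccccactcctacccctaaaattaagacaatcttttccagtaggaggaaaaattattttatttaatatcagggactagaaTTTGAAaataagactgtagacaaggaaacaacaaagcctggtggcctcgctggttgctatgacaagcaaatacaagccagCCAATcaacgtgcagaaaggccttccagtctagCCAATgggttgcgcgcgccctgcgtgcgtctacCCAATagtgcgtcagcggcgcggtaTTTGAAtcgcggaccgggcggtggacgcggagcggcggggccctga
Top2a: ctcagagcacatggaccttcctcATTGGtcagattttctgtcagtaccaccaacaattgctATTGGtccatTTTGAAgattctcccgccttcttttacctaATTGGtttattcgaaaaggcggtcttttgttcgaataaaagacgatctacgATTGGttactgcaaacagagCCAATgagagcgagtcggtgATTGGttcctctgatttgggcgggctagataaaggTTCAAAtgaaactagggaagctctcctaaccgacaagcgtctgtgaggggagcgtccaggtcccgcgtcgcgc

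Cholesterol synthesis, the source of the steroid precursor, was lower as a list but with smaller differences. Of 21 tested genes 9 were lower and 0 higher at 12 against 6 weeks (median log2 difference -0.27), against 4.48% of all genes lower. At 9 against 6 weeks 12 were lower and 0 higher (median -0.29), against 3.62% of all genes lower. Mvd, the mevalonate diphosphate decarboxylase, had 17.9, 19.98, 23.8 and 19.6 CPM at 6 weeks, 17.2, 17.98, 11.7 and 13.8 CPM at 9 weeks and 12.9, 14.5, 13.3 and 15.3 CPM at 12 weeks. The 12-week glands were all below the 6-week glands (log2 difference -0.54 ± 0.13; edgeR adjusted p = 0.174). Mvd was the 1 gene of the list that DESeq2 called, against 0.372% of all genes called lower. Sqle, the squalene epoxidase, had 30.4, 46.6, 29.3 and 54.8 CPM at 12 weeks, against 57.1, 47.2, 61.6 and 76.1 CPM at 6 weeks, and Hmgcs1, the HMG-CoA synthase of the pathway, had 206, 273, 184 and 253 CPM at 12 weeks, against 281, 230, 342 and 384 CPM at 6 weeks. Insig1, which holds the sterol sensor in the endoplasmic reticulum, had 70.7, 50.6, 60.2 and 56.6 CPM at 12 weeks, against 68.8, 71.3, 74.7 and 73.8 CPM at 6 weeks. These 3, chosen after their values were seen, overlapped between the ages. The count of 9 lower fell to 4 without replicate 1, 3 or 4 at 6 weeks or replicate 3 at 12 weeks. The window around the start of Mvd (RefSeq GRCm38.p6, chr8:122443373-122443672, minus strand) is shown with its 2 CCAAT boxes in capitals; 14 of 17 windows of 14 genes of this list (82.4%) held CCAAT. The sterol element searched as TCACNCCAC was in 1 of the 17 windows (5.88%, against 1.24% of all windows).
Mvd: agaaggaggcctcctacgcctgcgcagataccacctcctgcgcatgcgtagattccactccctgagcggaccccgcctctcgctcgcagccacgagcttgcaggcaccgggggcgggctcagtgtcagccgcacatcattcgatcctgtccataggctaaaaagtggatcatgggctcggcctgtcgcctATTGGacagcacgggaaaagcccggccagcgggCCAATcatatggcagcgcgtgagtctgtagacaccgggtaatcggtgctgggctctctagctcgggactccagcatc

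The steroid-producing enzymes themselves showed no member past unadjusted p under 0.05 in either direction: 0 of 15 genes of steroidogenesis and the zona fasciculata, with log2 differences between -0.32 and 0.28 and a median of -0.01. The shares of all genes were 6.6% higher and 4.48% lower. Star, which delivers cholesterol to the mitochondrion, had 14869, 9797, 11082 and 7123 CPM at 12 weeks, against 13045, 16179, 12200 and 9105 CPM at 6 weeks (log2 difference -0.24, 95% interval -0.74 to 0.26). Cyp11b1, the last enzyme of corticosterone synthesis, had 10855, 7473, 10098 and 7113 CPM at 12 weeks, against 9420, 8943, 7427 and 6643 CPM at 6 weeks (log2 difference 0.13, interval -0.21 to 0.47). Nr5a1 had 1169, 916, 1009 and 741 CPM at 12 weeks, against 1194, 1375, 1112 and 812 CPM at 6 weeks (log2 difference -0.23, interval -0.58 to 0.13). All 3 overlapped between the ages. Abcb1b, a drug efflux pump, had 1083, 1278, 818 and 1421 CPM at 12 weeks, against 1401, 1240, 1288 and 1816 CPM at 6 weeks. Cyp21a1 and Cyp11a1, chosen after their values were seen, had log2 differences of 0.16 (interval -0.18 to 0.50) and -0.10 (interval -0.32 to 0.11). The number of these 15 genes lower was 1 without replicate 2 or 4 at 6 weeks or replicate 4 at 12 weeks, and 2 without replicate 1 at 12 weeks.

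In the zona glomerulosa list 3 of 14 genes were higher and 1 lower (median 0.01), against 6.6% higher and 4.48% lower among all genes. Cyp11b2, the aldosterone synthase, had 254, 455, 376 and 364 CPM at 6 weeks, 236, 287, 160 and 222 CPM at 9 weeks and 294, 434, 428 and 239 CPM at 12 weeks. Its mean was lowest at 9 weeks (9-over-6 log2 difference -0.68 ± 0.22; 12-over-9 log2 difference 0.63 ± 0.22; edgeR adjusted p = 0.541 and 0.478), and the 12-over-6 log2 difference of -0.05 ± 0.22 changed sign with the animal left out. Kcnj5, a potassium channel of glomerulosa cells, had 1.202, 1.84, 2.07 and 2.85 CPM at 12 weeks, against 0.923, 1.25, 1.42 and 0.956 CPM at 6 weeks. Wnt4, the ligand that maintains the zone, chosen after its values were seen, had 396, 411, 465 and 380 CPM at 12 weeks, against 310, 390, 370 and 319 CPM at 6 weeks. In both the ages overlapped. Of 12 Wnt targets 1 was higher, Dkk3, a secreted Dickkopf family member, with 44.1, 46.4, 53.98 and 59.9 CPM at 12 weeks, against 31.1, 46.4, 39.6 and 38.6 CPM at 6 weeks, and 1 was lower. Of 12 Hedgehog and capsular progenitor genes 1 was lower, Hhip, the Hedgehog-binding inhibitor, with 11.2, 12.0, 11.8 and 16.1 CPM at 12 weeks, against 20.95, 17.1, 15.0 and 13.2 CPM at 6 weeks. The Wnt and Hedgehog counts are near the shares among all genes and are not read as results about these lists.

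The X-zone genes differed among themselves. Pik3c2g, a class II phosphoinositide 3-kinase, had 264, 192, 164 and 285 CPM at 6 weeks, 95.8, 118, 79.7 and 43.3 CPM at 9 weeks and 70.7, 80.9, 35.2 and 77.1 CPM at 12 weeks. Every older gland was below every 6-week gland, with a 12-over-6 log2 difference of -1.78 ± 0.31 (edgeR adjusted p = 0.0962; between 0.000355 and 0.262 over the alternatives). Akr1c18, the 20-alpha-hydroxysteroid dehydrogenase, had 1253, 1386, 1366 and 3214 CPM at 6 weeks, 879, 970, 1570 and 532 CPM at 9 weeks and 816, 2052, 549 and 2694 CPM at 12 weeks. It varied several-fold among animals of 1 age, and its log2 difference of -0.24 ± 0.49 (95% interval -1.29 to 0.81) was 0.19 without replicate 4 at 6 weeks. Of the 5 X-zone genes listed, Pik3c2g was the 1 with unadjusted p under 0.05, lower, and 0 were higher (4.48% of all genes lower, 6.6% higher). Without replicate 3 at 6 weeks or replicate 1 at 12 weeks 1 was higher. F5, coagulation factor V, chosen after its values were seen, was likewise highest at 6 weeks, with 9.45, 3.41, 11.4 and 6.17 CPM at 6 weeks, 2.18, 2.93, 4.29 and 2.31 CPM at 9 weeks and 0.811, 2.22, 2.09 and 2.34 CPM at 12 weeks (12-over-6 log2 difference -2.02 ± 0.39; edgeR adjusted p = 0.12).

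Medullary genes were slightly higher in older glands, none of them past the adjusted test. Of 14 chromaffin cell genes 7 were higher and 0 lower at 12 against 6 weeks (median log2 difference 0.26), against 6.6% of all genes higher. At 9 against 6 weeks 5 were higher (3.6% of all genes). DESeq2 called 1 higher at 12 against 6 weeks (1.05% of all genes). Scg2, a granin of the secretory granule, had 597, 422, 560 and 730 CPM at 6 weeks, 723, 866, 698 and 852 CPM at 9 weeks and 754, 881, 947 and 868 CPM at 12 weeks (12-over-6 log2 difference 0.58 ± 0.14; edgeR adjusted p = 0.168), and its 12-week glands were all above the 6-week glands. Chga, the major granin, had 1757, 1695, 1871 and 1911 CPM at 12 weeks, against 1642, 1476, 1448 and 1830 CPM at 6 weeks, and Dbh, the enzyme that makes noradrenaline, had 285, 264, 338 and 332 CPM at 12 weeks, against 257, 230, 231 and 307 CPM at 6 weeks. Both overlapped, replicate 4 at 6 weeks being above some 12-week glands. The count of 7 was 11 without that library, 2 without replicate 2 at 6 weeks, 3 without replicate 1 or 3 at 6 weeks and 4 without replicate 3 or 4 at 12 weeks. Of 10 Schwann cell genes 1 was higher, Mbp, the myelin basic protein, with 16.99, 22.4, 18.997 and 25.9 CPM at 12 weeks, against 14.2, 15.6, 16.9 and 20.1 CPM at 6 weeks. Among all genes 6.6% were higher. The Schwann count was 4 without replicate 4 at 6 weeks, 2 without replicate 1 at 12 weeks and 0 without replicate 1 or 2 at 6 weeks or replicate 2 or 4 at 12 weeks, and 1 was lower without replicate 3 at 12 weeks. The list's median of 0.22 was 0.36 without replicate 4 at 6 weeks and 0.07 without replicate 4 at 12 weeks.

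Matrix genes went in both directions. Eln, elastin, had 44.3, 39.0, 52.1 and 65.9 CPM at 6 weeks, 49.4, 38.3, 27.8 and 39.3 CPM at 9 weeks and 12.7, 21.7, 23.9 and 26.2 CPM at 12 weeks (12-over-6 log2 difference -1.25 ± 0.23; edgeR adjusted p = 0.106; 2.39e-05 to 0.232 over the alternatives). The 12-week glands were all below the glands of both younger ages. Tnc, the adhesion modulator tenascin C, chosen after its values were seen, was higher, with 58.1, 67.6, 61.4 and 43.7 CPM at 12 weeks, against 41.8, 28.7, 24.1 and 24.1 CPM at 6 weeks (log2 difference 0.96 ± 0.18; edgeR adjusted p = 0.118). Col5a3, a minor fibrillar collagen chain, had 1207, 963, 769 and 760 CPM at 12 weeks, against 626, 694, 400 and 501 CPM at 6 weeks, also without overlap (log2 difference 0.74 ± 0.18; edgeR adjusted p = 0.171). Col1a1, the main chain of collagen I, had 74.4, 97.3, 123 and 206 CPM at 12 weeks, against 156, 174, 208 and 179 CPM at 6 weeks, and replicate 4 at 12 weeks lay within the 6-week range. Of 15 collagen genes 1 was higher and 3 were lower (median -0.17), whereas without that replicate 1 was higher and 11 lower (median -0.31). With every library kept, 6.6% of all genes were higher and 4.48% lower. Replicate 4 was also the library with the highest smooth muscle actin, and its part in the collagen result was not tested beyond leaving it out. Without replicate 3 at 6 weeks or replicate 1 or 2 at 12 weeks the number of collagens lower was 1. Of 16 genes of matrix assembly 1 was higher and 1 lower, and without replicate 4 at 12 weeks 1 was higher and 5 were lower, and without replicate 1 at 12 weeks 2 were higher and 2 lower.

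The remaining lists held few members past unadjusted p under 0.05, where 6.6% of all genes were higher and 4.48% lower. With so few members per list, no count here is read as a result about its list. The imprinted growth genes had 2 of 16 higher and 2 lower, with Dlk1, a membrane protein of progenitor cells, at 372, 345, 395 and 351 CPM at 12 weeks, against 295, 282, 270 and 339 CPM at 6 weeks. Lipid droplet and fatty acid genes had 2 of 14 higher and 1 lower, with Plin2, the droplet coat protein, at 292, 295, 298 and 314 CPM at 12 weeks, against 255, 263, 259 and 233 CPM at 6 weeks (log2 difference 0.25; edgeR adjusted p = 0.128). In both genes the ages did not overlap. Of 10 tested sex steroid genes 1 was higher and 2 lower, among them Inha, the inhibin alpha subunit, at 41.0, 37.8, 35.9 and 31.7 CPM at 12 weeks, against 44.3, 42.8, 44.8 and 47.0 CPM at 6 weeks. Its 12-week glands were all below its 6-week glands. The glutathione list had 1 of 15 higher and 1 lower, the lower one being the secreted peroxidase Gpx3 at 92.0, 64.4, 106 and 121 CPM at 12 weeks, against 199, 93.0, 291 and 127 CPM at 6 weeks, which overlap. Endothelial genes had 2 of 12 higher, with the TGF-beta co-receptor Eng at 167, 171, 191 and 194 CPM at 12 weeks, against 154, 161, 171 and 162 CPM at 6 weeks. Pericyte and smooth muscle genes had 1 of 10 higher and 2 lower, with the proteoglycan Cspg4 at 9.34, 9.01, 12.4 and 8.19 CPM at 12 weeks, against 13.9, 12.6, 13.9 and 12.0 CPM at 6 weeks. Eng and Cspg4 each overlapped in 1 or more glands. Respiratory chain genes had 0 of 16 higher and 1 lower, Sdhb of complex II, at 255, 232, 228 and 210 CPM at 12 weeks, against 249, 263, 248 and 248 CPM at 6 weeks. Among 16 clock genes, 12 genes of the unfolded protein and heat shock responses and 5 erythrocyte genes, 0 were past unadjusted p under 0.05. Of 9 tested glucocorticoid receptor targets 1 was higher, Cdkn1a, given above, and of 2 tested genes of neighbouring organs 0, the pancreatic elastase Cela1 having a log2 difference of 0.15 ± 0.15. The members of these 3 lists with the smallest p were Cry1, a clock repressor (log2 difference -0.30 ± 0.15), Dnajb9, a chaperone of the endoplasmic reticulum (0.14 ± 0.09), and Hba-a2, an alpha globin (-0.45 ± 0.62).

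With counts this small, single animals moved most of them. The count of sex steroid genes higher was 4 without replicate 1 at 12 weeks, 3 without replicate 2 or 3 at 6 weeks, and 2 without replicate 1 or 4 at 6 weeks, replicate 2, 3 or 4 at 9 weeks or replicate 3 at 12 weeks. In all of these but the last 11 genes of the list passed the filter, not 10. The imprinted list had 1 lower without replicate 3 or 4 at 6 weeks, 1 or 2 at 9 weeks or 2 or 4 at 12 weeks. The lipid droplet list had 0 lower without replicate 1 at 6 weeks and 2 without replicate 3 or 4 at 9 weeks. The glutathione list had 0 higher without replicate 1 or 4 at 6 weeks or replicate 4 at 12 weeks and 2 without replicate 2 at 12 weeks, while 0 were lower without replicate 3 at 6 weeks and 2 without replicate 4 at 12 weeks. Endothelial genes had 0 higher without replicate 1 at 6 weeks or replicate 4 at 12 weeks, and 1 without replicate 2, 3 or 4 at 6 weeks or 1, 2 or 3 at 12 weeks; 1 was lower without replicate 3 at 6 weeks, 4 at 9 weeks or 3 or 4 at 12 weeks. Pericyte genes had 0 higher without replicate 1, 2 or 4 at 6 weeks or 4 at 12 weeks and 2 without replicate 1 or 2 at 12 weeks, and 1 lower without replicate 1, 3 or 4 at 6 weeks or 1 or 2 at 12 weeks. Respiratory chain genes had 2 lower without replicate 1 at 12 weeks and 0 without any other single library. Glucocorticoid receptor targets had 0 higher without replicate 4 at 6 or at 12 weeks, and 1 was lower without replicate 1 at 12 weeks. A clock gene was lower without replicate 2 at 9 weeks, a stress response gene higher without replicate 4 at 6 weeks, and an erythrocyte gene higher without any 1 library of 9 weeks or replicate 3 or 4 at 12 weeks, where 6 erythrocyte genes passed the filter, not 5. In the zona glomerulosa list 0 were lower without replicate 2 at 6 weeks or 1, 3 or 4 at 12 weeks and 2 without replicate 1 at 6 weeks. Wnt targets had 2 higher without replicate 4 at 6 weeks, 0 lower without replicate 3 or 4 at 6 weeks or 1 or 2 at 12 weeks, and 2 lower without replicate 3 at 12 weeks. The Hedgehog list had 0 lower without replicate 1 or 2 at 6 weeks or 1, 2 or 3 at 12 weeks, and 1 higher without replicate 1 or 2 at 12 weeks.

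Immediate early genes, which respond within minutes to stimulation, were highest in a single 12-week gland, replicate 1. Summed over the list they had 3497 CPM there, 1326 CPM in replicate 2 at 6 weeks and 946 CPM in replicate 2 at 12 weeks. The other glands had 436 to 649 CPM. Of 16 genes 10 were higher and 0 lower at 12 against 6 weeks (median log2 difference 1.36), but without replicate 1 at 12 weeks 2 were higher and the median was 0.23. With every library kept, the shares of all genes were 6.6% higher and 4.48% lower. Fos had 134, 10.7, 5.96 and 3.18 CPM at 12 weeks, against 2.95, 5.37, 3.56 and 2.12 CPM at 6 weeks. Junb had 660, 59.5, 35.7 and 34.9992 CPM at 12 weeks, against 31.98, 59.7, 26.6 and 28.6 CPM at 6 weeks. Nr4a1, an orphan nuclear receptor induced by ACTH, had 1351, 415, 174 and 55.4 CPM at 12 weeks, against 149, 732, 66.5 and 91.4 CPM at 6 weeks. In these 3, chosen after their values were seen, replicate 1 at 12 weeks was the highest of all 12 glands, and replicate 2 at 6 weeks was the second highest for Nr4a1. Egr2, a zinc finger factor of the same class, had 0.383, 0.245, 0.264 and 0.228 CPM at 6 weeks, 0.355, 0.442, 0.644 and 0.540 CPM at 9 weeks and 4.64, 0.993, 1.03 and 0.950 CPM at 12 weeks. Its other 3 glands at 12 weeks were also above all younger glands (12-over-6 log2 difference 2.74 ± 0.53; edgeR adjusted p = 0.12). The window around the start of Fos (RefSeq GRCm38.p6, chr12:85473640-85473939, plus strand) is shown with the CREB core TGACGT in capitals, a motif that was in 9 of 16 windows of 12 genes of the list (56.2%), against 7.51% of all windows.
Fos: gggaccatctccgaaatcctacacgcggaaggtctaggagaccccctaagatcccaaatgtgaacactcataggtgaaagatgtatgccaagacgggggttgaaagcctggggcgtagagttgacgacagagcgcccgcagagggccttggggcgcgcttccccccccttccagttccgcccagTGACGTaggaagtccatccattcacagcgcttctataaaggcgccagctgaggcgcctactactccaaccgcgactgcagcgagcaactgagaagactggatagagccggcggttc

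Other single glands stood apart in genes of other cell types. Replicate 4 at 12 weeks had 77.3 CPM of the adipocyte gene Cfd and 89.9 CPM of the smooth muscle actin Acta2, the highest of the 12 glands. Of 10 tested adipose genes 1 was higher at 12 weeks (median log2 difference 0.89), Lpl, the lipoprotein lipase, with 58.4, 69.4, 71.7 and 102 CPM at 12 weeks, against 50.0, 55.4, 53.1 and 52.0 CPM at 6 weeks, and without replicate 4 at 12 weeks the list median was -0.01. The share of all genes higher was 6.6%. The count of adipose genes higher was 2 without replicate 2 at 6 or at 12 weeks and 3 without replicate 1 at 12 weeks. Replicate 2 at 12 weeks had 3.78 CPM of the neutrophil gene S100a8, and without it the neutrophil median fell to 0.45, against 1.39 with all libraries. Without both replicates 1 and 4 at 12 weeks, 16 of 24 cell cycle genes were lower, 4 of 16 macrophage genes and 1 of 12 MHC class II genes higher, and 8 of 22 cholesterol genes (22 passed the filter there) lower.

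**Figure D4:**
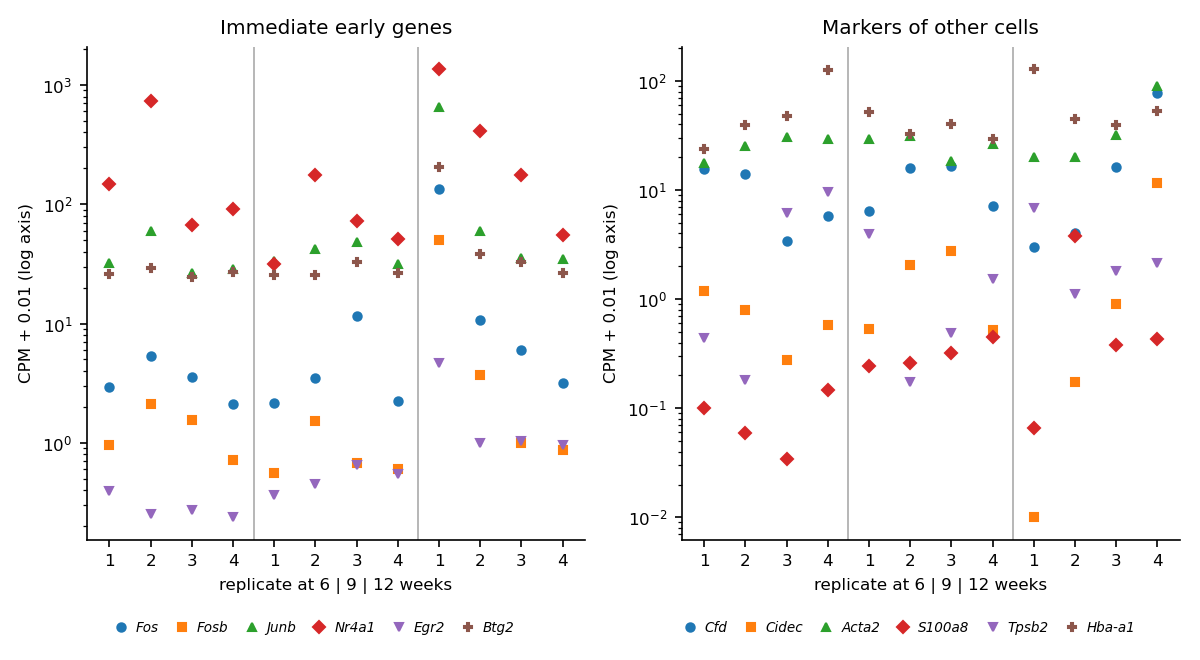
CPM plus 0.01 on a log axis in each of the 12 control glands in order of age for 6 immediate early genes (left) and 6 genes of adipocytes, smooth muscle, neutrophils, mast cells and red cells (right), with a point for each gland. Replicate 1 at 12 weeks stands out on the left, with Fos at 134 CPM, and replicate 4 at 12 weeks on the right, with Cfd at 77.3 CPM.

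Some genes differed many-fold between animals of 1 age. Among the 13390 genes whose log2 CPM averaged 1 or more, the gene with the widest spread within ages was Trim12a (chr7:104299894-104315466), one of a cluster of TRIM genes, with 0.045, 19.95, 20.7 and 35.3 CPM at 6 weeks, 36.6, 16.05, 20.8 and 38.2 CPM at 9 weeks and 43.8, 0.118, 17.9 and 36.2 CPM at 12 weeks. The glands fell near 3 levels, near 0 in replicate 1 at 6 weeks and replicate 2 at 12 weeks, 16.05 to 20.8 CPM in 5 glands and 35.3 to 43.8 CPM in the other 5. Its neighbours Trim30d (chr7:104470014-104507849) and Trim5 (chr7:104263386-104288094) were lowest in the same 2 glands, with 0.293 and 0.686 CPM for Trim30d and 0.675 and 0.331 CPM for Trim5. Trim34b (chr7:104329471-104336909) was highest in these, with 8.64 CPM in replicate 1 at 6 weeks and 12.1 CPM in replicate 2 at 12 weeks. Dynlt1b on chromosome 17 (chr17:6430112-6436296), a dynein light chain, had 0.045 CPM in replicate 1 at 6 weeks and 0.0276 CPM in replicate 2 at 9 weeks, with 7.03 to 18.6 CPM in the other 10. These genes belong to families with near-identical copies, and the handling of reads that fit several copies is not stated. The cause of the differences between animals was not tested. Of the 60 of these 13390 genes with the widest spread, 24 were pseudogenes and 33 protein coding. The shares of these types among all 13390 genes were not counted, so it cannot be said whether either is many or few. The labels give 1 strain for all animals. All genes of this paragraph were chosen after their values were seen, and none passed a test of age.

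**Figure D5:**
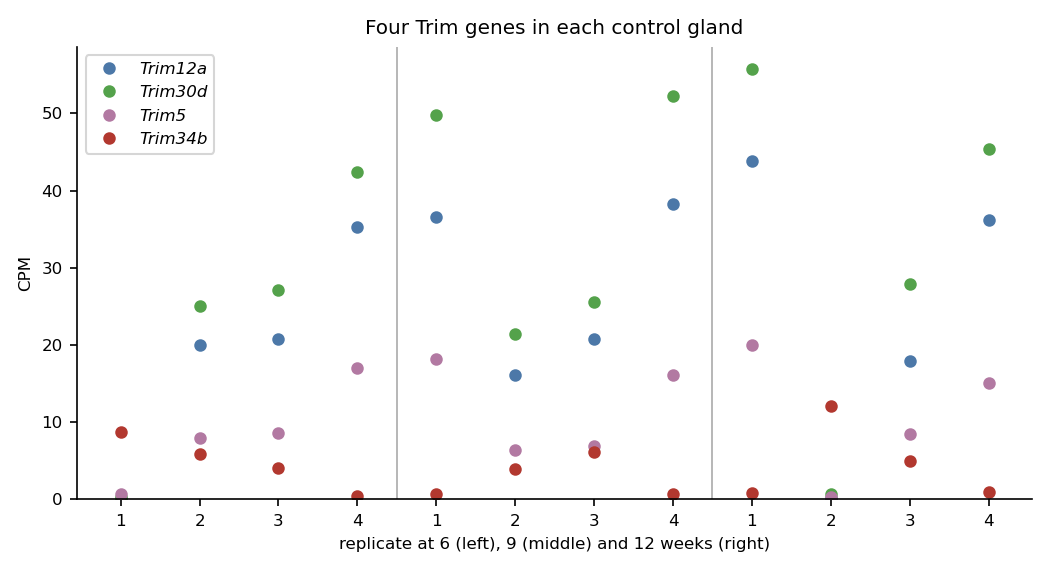
CPM of 4 neighbouring TRIM genes on chromosome 7 in each of the 12 control glands in order of age, with a point for each gland. Trim12a is near 0 in replicate 1 at 6 weeks (0.045 CPM) and replicate 2 at 12 weeks (0.118 CPM), the glands in which Trim34b is highest (8.64 and 12.1 CPM).

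Set beside cKO glands, the change of the control gland over the same weeks was small in number of genes. In a fit of 24 female libraries, 1852 of the genes tested (9.93%) passed at 12 against 6 weeks in cKO glands, 1124 higher (6.03%) and 728 lower (3.9%), and 17 (0.0912%) in control glands (edgeR quasi-likelihood, adjusted p under 0.05). The 12-over-6 difference itself differed between the genotypes in 60 genes (0.322% of 18645), 59 of them higher (0.316%) and 1 lower (0.00536%) in cKO minus control, and 0 of the 3 genes called in controls above were among them. Trem2 had 18.9, 41.4, 18.8 and 29.05 CPM in 12-week and 7.44, 9.68, 8.52 and 24.6 CPM in 6-week cKO glands, a log2 difference of 1.10 (cKO minus control -0.02 ± 0.46; edgeR adjusted p = 0.994). Hsf4 had 0.536, 1.33, 0.949 and 0.580 CPM in 12-week and 0.572, 0.470, 0.605 and 0.728 CPM in 6-week cKO glands (cKO minus control -1.02 ± 0.39; edgeR adjusted p = 0.335). These tests did not separate the genotypes for either gene. F5, low in older controls, had 0.348, 2.31, 0.300 and 0.278 CPM in 12-week and 0.0916, 0.0587, 0.266 and 0.0883 CPM in 6-week cKO glands, and its difference between genotypes passed (cKO minus control log2 4.69 ± 0.93; edgeR adjusted p = 0.0325). These cKO values were near the floor except in replicate 2 at 12 weeks. Without that gland 11 genes in place of 60 differed between the genotypes, and whether F5 was among them is not given here.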

How the data were processed

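Raw counts of reads per gene, deposited by the authors as 1 table of female samples without normalization, were the starting point. Per the submitters' processing notes, the tools named were cutadapt 1.16, STAR 2.7.6a, featureCounts, RSEM 1.6.3 and DESeq2 1.30.1 with build GRCm38; their roles are not given in the sources used here. Columns were matched to samples through their names in the labels, and 0 columns were left unmapped. Identifiers were named from GENCODE M21 (99.53% had a symbol). Genes were kept with edgeR 4.0.16 filterByExpr (minimum count 10), scaled by TMM and tested with glmQLFit and glmQLFTest in R 4.3.3 on the 12 control libraries, with age as the factor; the genotype comparison used 24 female libraries. P-values were adjusted by the Benjamini-Hochberg method over all genes tested and called below 0.05. SE is the log2 difference divided by the square root of the F statistic. CPM were computed from the deposited counts, and length-corrected values (TPM) divide them by gene length. The scripts were tested on simulated counts.

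Depth was 35694264 to 44837650 counts per library and the biological coefficient of variation common to all genes 0.1644; counting error adds to it, most in genes of low count. No 2 libraries held identical values. Same-numbered libraries correlated between -0.201 and 0.288 in their deviations from the age means, above 0.1 in 4 of 12 pairs, so numbers were not used as pairs.

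Members and gene lists were chosen with earlier results of these data known. Genes are named by a rule: 10 watched genes, called genes without overlap between ages whose mean log2 CPM reached 1 (up to 8 in each direction at 12 against 6 weeks, 4 at other intervals), and in each list up to 4 called members or else the member with the smallest p. Also named were genes called at 12 against 6 weeks with the smallest p for the difference between genotypes in each direction. Hsf4 was named by this last part. Others are said to be chosen after their values were seen. Alternatives were DESeq2 1.42.0, relative log expression scaling, other count filters, other sets of libraries, a replicate term and leaving out each library; robust edgeR estimation and leaving out replicates 1 and 4 at 12 weeks together were added after seeing the data. A gene that passed the threshold is not reported here.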

Additional observations from a re-analysis of the deposited data

Results flagged for a closer look

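Among 258 groups of 4 animals (86 named genes at 3 ages), 21 held a gland whose gap to its nearest neighbour, over the range of the group, exceeded Dixon's 95% critical value of 0.829. Chance flags about 5% of groups, but many of these genes were chosen after their values were seen, so the number is not read against that share. Replicate 1 at 12 weeks was the far gland for Fos (134 CPM), Fosb (50.0 CPM), Junb (660 CPM) and Egr2 (4.64 CPM), for Hsd3b1 (17866 CPM), for the apolipoprotein Apoc1 (176 CPM) and, on the low side, for F5 (0.811 CPM). Replicate 4 at 12 weeks was far above the other 12-week glands for Acta2 (89.9 CPM), Il7r (2.45 CPM) and the anaphase inhibitor Pttg1 (43.0 CPM), and replicate 2 at 12 weeks for S100a8 (3.78 CPM). The Pttg1 level was not particular to that gland, with 43.1 and 45.1 CPM in replicates 3 and 4 at 6 weeks. At 6 weeks, replicate 4 stood above the others for Akr1c18 (3214 CPM) and Th (323 CPM). Replicate 2 at 6 weeks stood above for Junb (59.7 CPM), Nr4a1 (732 CPM) and Sdhb (263 CPM) and below for Mcm3 (40.5 CPM), and replicate 1 at 6 weeks below for Irf8 (33.8 CPM). At 9 weeks, replicate 3 stood apart for Fos (11.7 CPM) and replicate 2 for Fosb (1.52 CPM, high) and Top2a (20.1 CPM, low). The 12-over-6 difference of F5 differed between genotypes (cKO minus control log2 4.69; edgeR adjusted p = 0.0325). Its cKO values at these ages were near the floor except in replicate 2 at 12 weeks. The genes here that no rule named were chosen after their values were seen.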

How the results depend on the processing

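The count of calls at 12 against 6 weeks (3) was 3 with relative log expression scaling, 2 with CPM of at least 5 in 4 libraries and 2 with 8 libraries, but 256 with DESeq2, 23 without a filter, 17 in a fit of 24 libraries (1 shared gene, Hsf4), 9 with robust estimation, 0 with the replicate block and 0 without replicates 1 and 4 at 12 weeks; leaving out 1 library gave 0 to 6. At 9 against 6 weeks (0) DESeq2 gave 63 and leaving out 1 library 0 to 3. At 12 against 9 weeks (0) DESeq2 gave 59, no filter 1, robust estimation 1 and leaving out 1 library 0 to 3. For any age difference (0) DESeq2 gave 309, no filter 9, 24 libraries 7, robust estimation 3 and leaving out 1 library 0 to 2. The 60 genes that differed between genotypes were 291 with DESeq2, 35 with the replicate block and 11 (without cKO replicate 2 at 12 weeks) to 143 (without cKO replicate 4 at 12 weeks) with 1 library left out. The cause of these shifts was not tested. Among gene results the sign of the 12-over-6 log2 difference reversed 8 times, in 4 genes, none of them called. Cyp11b2 (-0.05) was 0.25 without replicates 1 and 4 at 12 weeks, 0.0742 without replicate 2 at 6 weeks, 0.0139 without replicate 1 and 0.0900 without replicate 4 at 12 weeks, its lowest value being -0.19. Akr1c18 (-0.24) was 0.19 without replicate 4 at 6 weeks and 0.0363 without replicate 3 at 12 weeks, lowest -0.66. Hba-a2 (-0.45) was 0.34 without replicate 4 at 6 weeks, with a lowest value of -0.80 with 1 library left out and of -0.93 without replicates 1 and 4 at 12 weeks. Nr4a1 (0.94) was -0.28 without replicate 1 at 12 weeks, highest 2.29. Under the replicate block the 3 called genes were no longer called, and the numbers do not pair animals (4 of 12 libraries correlated best with their own number).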

Other observations

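Among clock genes, which as a list held 0 members past unadjusted p under 0.05 between 12 and 6 weeks, Arntl, chosen after its values were seen, stood at 11.4 and 11.3 CPM in replicates 2 and 3 at 9 weeks. The time of day of sampling is not given in the labels. On a scale corrected for gene length (TPM), mt-Co1 had the highest mean over the 12 control glands, 33917 TPM, followed by Cyp21a1 with 27975 and Hsd3b1 with 26905, and Star had 9573, Cyp11b1 9036 and Akr1c18 3990 TPM. Cd1d2 on chromosome 3 and the ribosomal protein gene copy Rps3a3 on chromosome 13, both chosen after their values were seen, were high in the same 3 glands, replicate 4 at 6 weeks and replicates 1 and 4 at 9 weeks. Cd1d2 had 28.1, 32.8 and 32.9 CPM in these glands and 0.84 to 1.303 CPM in the other 9, and Rps3a3 had 67.0, 68.6 and 73.2 CPM in them and 0.95 to 1.29 CPM in the other 9.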
